A study of Mus musculus with 57 samples.

Results

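Epithelium of the embryonic day 13 (E13) mouse salivary gland, wild type by its labels, was cultured with neuregulin 1 (NRG1) and its RNA was sequenced after 72 h (day 3) and 96 h (day 4). The comparison of day 4 with day 3 rests on 4 of the 57 samples of the study, 2 libraries at each day, taken by their labels, and on the 5179 rows of the count table of these cultures. The 2 libraries of day 2 (48 h) of the same wild-type epithelium with NRG1 entered the fit as well. Every culture used here received NRG1, so time in culture and time with NRG1 cannot be told apart. Freshly dissected, untreated wild-type salivary glands of E16 and E17, with 4 samples at each stage, are set beside the cultures. Fresh glands of the other stages from E13 to E18 entered the gland fit as well. These glands hold stroma, nerves and vessels that separated epithelium should lack. Nothing in the labels says that libraries of a day came from separate cultures or litters, so p-values cover no more than the variation among these libraries, part or all of which may be technical.

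NRG1 is a secreted growth factor that binds the receptor ERBB3, which signals with its partner ERBB2 through PI3 kinase and MAP kinase. In the embryonic salivary gland the epithelium branches into end buds that hold progenitors, marked by Sox10 and Kit, and these become acini, the units that make and secrete saliva. In the mouse submandibular gland the young acinar cells first make a neonatal set of saliva proteins, among them Smgc and Bpifa2. Ducts form beside them from basal cells, which carry Krt5 and Krt14, and luminal cells, which carry Krt19, and contractile myoepithelial cells come to surround the acini.

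The table holds part of each library. Its totals were 13357811 and 11516008 counts at day 3 and 15417736 and 15091570 at day 4, which are not depths. Of its rows 8 carried a date in place of a symbol and were left out, and 5171 genes were tested. Of these, 96.6% changed over the 3 days at an adjusted p under 0.05, so the table appears to hold genes picked for change in these libraries and the share of called genes cannot be carried over to all genes. Adjusted p-values computed over rows picked in this way may be too small, here and below, and this was not tested. Of 20 general epithelial genes, such as Epcam, Cdh1 and Krt8, 14 were in the table, and their summed level was 12520 to 15060 CPM in the 6 libraries. Levels are in CPM, the TMM-scaled counts per 1e6 counts of the table's genes. Of the markers of other cells, 1 of 17 neuronal, 4 of 11 Schwann cell, 3 of 15 mesenchymal, 7 of 12 macrophage and 1 of 9 erythroid genes were in the table, with none of 10 endothelial and none of 10 skeletal muscle genes. What the libraries hold of the genes outside the table was not tested.

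The libraries of 1 day differed. In 36 genes with a mean of at least 10 CPM the 2 libraries of day 3 lay over 2-fold apart, against 26 at day 4 and 5 at day 2. In 35 of these 36 genes the 2 libraries of day 4 differed in the opposite direction, so that day 3 replicate 1 and day 4 replicate 2 were both the higher or both the lower library of their day. Lcn2, an iron-binding defence protein of mucosal surfaces, had 292 and 71.4 CPM at day 3 and 96.3 and 164 at day 4. Clu, which encodes the secreted chaperone clusterin, had 2148 and 900.2 CPM at day 3 and 531 and 1067 CPM at day 4. Both days overlap for these genes, and neither gene passed the test (-0.49 ± 0.60, adjusted p = 0.501, and -0.93 ± 0.45, adjusted p = 0.129).

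From day 3 to day 4, 2410 of the 5171 genes (46.6%) were called by edgeR's quasi-likelihood test at a Benjamini-Hochberg adjusted p under 0.05, with 1272 higher (24.6%) and 1138 lower (22.0%) at day 4. Without the step that corrects for library composition (TMM), 765 were higher and 1653 lower, and the median log2 fold change of all genes was -0.0904 in place of 0.00. The shares of all genes in the main fit, 24.6% higher and 22.0% lower, are the background for the count of each gene list below. Most changes were small. Only 168 called genes were over 2-fold higher and 222 over 2-fold lower, and 1603 lay within 1.5-fold. Groups whose libraries did not overlap were the rule, with 80.0% of genes, so an absence of overlap sets a gene apart little in this table. Of the 2410 calls 45.4% were kept in the same direction when day 3 replicate 1 was left out, which gave 1166 calls, and 46.1% without day 4 replicate 2, which gave 1155. No called gene was called in the opposite direction in any alternative run.

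**Figure D1:**
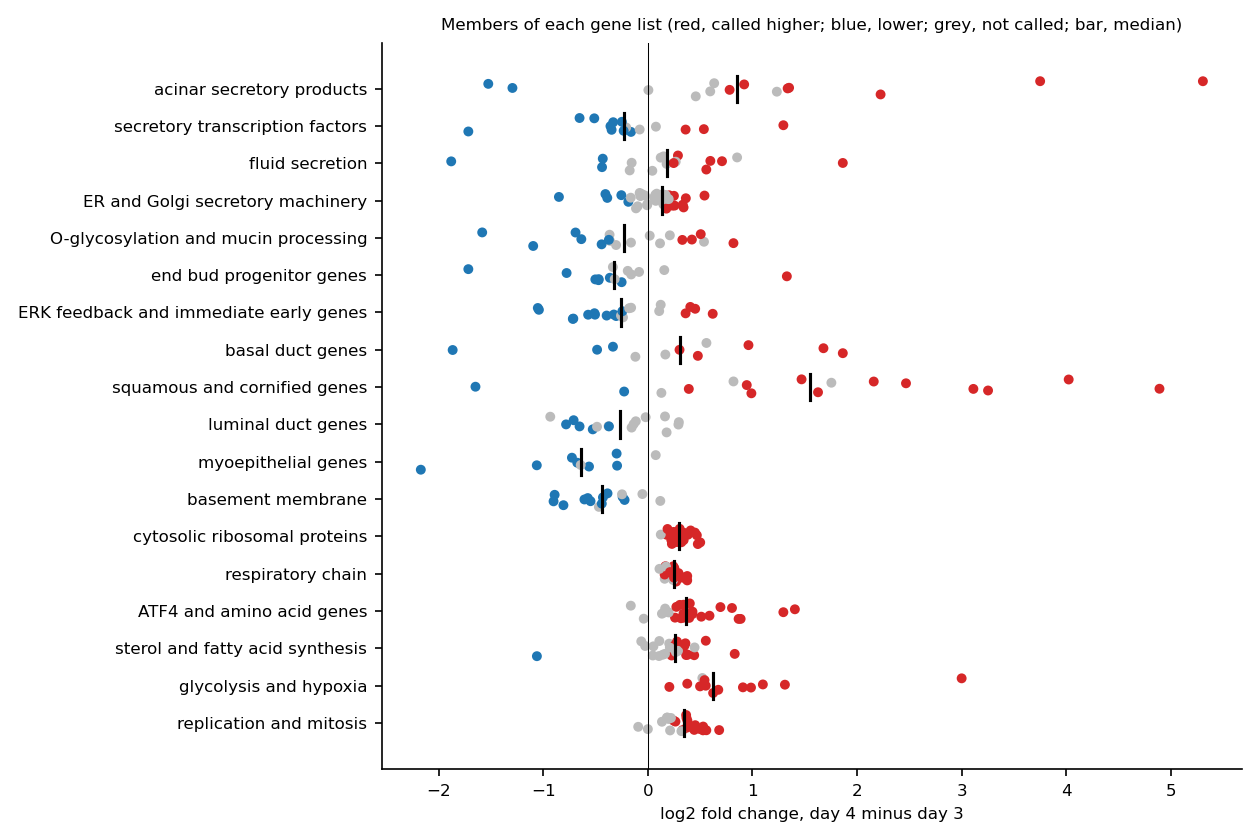
Log2 fold change from day 3 to day 4 (x axis) of each measured member of 18 gene lists (rows), with 1 point a gene and a bar at the list's median. The median was 0.85 for acinar products and 1.55 for squamous genes, and -0.64 for myoepithelial and -0.44 for basement membrane genes.

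Genes of saliva proteins rose. Of 26 acinar products 14 were in the table, and 7 rose, 2 fell and 5 did not pass, with a median log2 fold change of 0.85 against 0.00 over all genes tested, of which 24.6% rose and 22.0% fell. Smgc, a major saliva protein of the neonatal mouse gland, lies on chromosome 15 at 91838265 to 91861438 of GRCm38 (plus strand, GENCODE M21). It had 34199 and 36948 CPM at day 3 and 90131 and 89652 CPM at day 4. The days did not overlap, and Smgc rose, with a log2 change of 1.34 ± 0.10 (adjusted p = 0.000792, where ± is the SE). In bulk RNA more or fewer cells of a type and more or less RNA per cell cannot be told apart. Smgc made up 3.45% and 3.75% of the table's counts at day 3 and 8.58% and 8.49% at day 4. Bpifa2, the parotid secretory protein gene on chromosome 2 at 154008265 to 154016079 (plus strand), went from 115 and 146 CPM at day 3 to 2122 and 1399.9 CPM at day 4, a rise of 3.75 ± 0.22 (adjusted p = 0.000437). The prolactin-inducible protein gene Pip went from 208 and 292 CPM at day 3 to 1194 and 1144 CPM at day 4, with a log2 change of 2.23 ± 0.20 (adjusted p = 0.00157). Lpo, which encodes the antibacterial enzyme lactoperoxidase, had 1083 and 1225 CPM at day 3 and 2081 and 1889 CPM at day 4 and rose less, by 0.78 ± 0.08. All 4 of these genes had also risen from day 2 to day 3, by 2.26 ± 0.10, 3.02 ± 0.25, 2.55 ± 0.22 and 1.24 ± 0.08.

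The mucin-like gene Mucl2 had 27.5 and 34.4 CPM at day 3 and 65.2 and 92.7 CPM at day 4 (1.35 ± 0.19, adjusted p = 0.00438). Scgb2b27, a secretoglobin gene, had 7.14 and 7.45 CPM at day 3 and 10.7 and 16.9 CPM at day 4 (0.92 ± 0.27, adjusted p = 0.0308), and its log2 change without day 3 replicate 1 was 0.88 (adjusted p = 0.096), without day 3 replicate 2 0.95 (adjusted p = 0.065) and without day 4 replicate 2 0.55 (adjusted p = 0.184). The call of Scgb2b27 was also lost without either library of day 2. Prol1, a mucin-like saliva protein gene, had 3 counts over both day 3 libraries and 148 over both day 4 libraries, a ratio per count of 42.8 (95% exact interval 14.4 to 210, which covers counting error only). Smr2, another submandibular product gene that was chosen after its values were seen, had 0 counts at day 3 and 203 at day 4, which makes it at least 58.7-fold higher against a floor of 3 counts over the group.

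The products that fell were Agr2 and Pigr. Agr2, a protein disulfide isomerase that helps mucins fold in the endoplasmic reticulum (ER), had 75.8 and 107 CPM at day 3 and 38.5 and 36 CPM at day 4 and its log2 change was -1.29 ± 0.16 (adjusted p = 0.00297). Pigr, which carries antibodies across epithelia, had 81.6 and 26.7 CPM at day 3 and 16.8 and 20.9 CPM at day 4, and its log2 change of -1.53 ± 0.45 (adjusted p = 0.0313) rests on the high value of day 3 replicate 1. Without that library the change of Pigr was -0.52 (adjusted p = 0.121), and leaving out any other library except day 3 replicate 2 also ended the call. Carbonic anhydrase 6 (Car6), a saliva enzyme, went from 3.35 and 2.06 CPM at day 3 to 8.32 and 4.48 CPM at day 4 without passing the test (1.23 ± 0.50, adjusted p = 0.0757). Dcpp1 and Dcpp2, near-identical neighbours whose reads can be split between them, did not pass either (0.63 ± 0.28 and 0.01 ± 0.52). The same holds for the mucin-like gene Mucl1, with 3.49 and 7.11 CPM at day 3 and 4.91 and 9.59 CPM at day 4 (0.46 ± 0.44), and for angiotensinogen (Agt), with 6.1 and 5.74 CPM at day 3 and 7.85 and 10.1 CPM at day 4 (0.60 ± 0.29, adjusted p = 0.116).

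**Figure D2:**
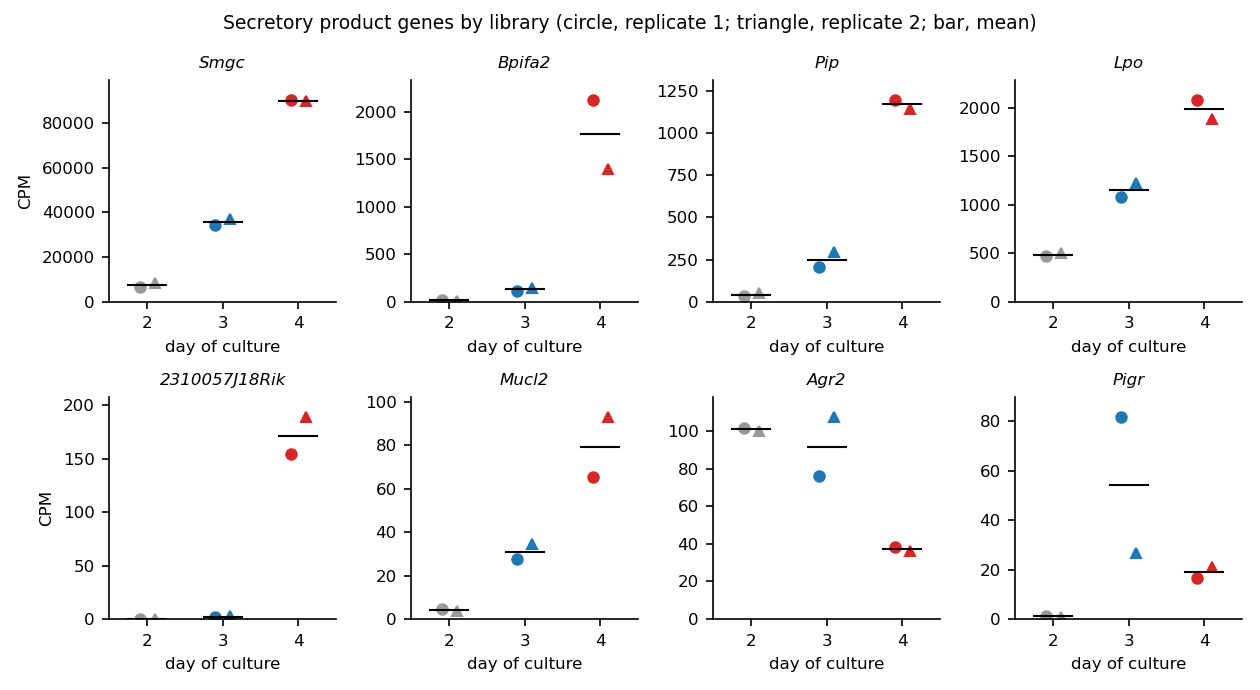
Levels in CPM (y axis, starting at 0) of 8 secretory product genes in each of the 6 libraries by day of culture (x axis). The day 4 libraries of Smgc sit at 90131 and 89652 CPM, those of day 3 at 34199 and 36948, and Pigr shows 81.6 CPM in one day 3 library and 26.7 in the other.

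Among called genes with a mean of at least 10 CPM at days 3 and 4, the largest rise was that of 2310057J18Rik, which RefSeq lists with the synonym Leg1, a secreted protein known from the liver of fish. It had 0.0862 and 0.256 CPM at day 2, 2.01 and 2.57 at day 3 and 154 and 188 at day 4, or 27 and 30 counts at day 3 and 2261 and 2692 at day 4. The log2 change was 6.23 ± 0.18 (adjusted p = 1.33e-05), and it was 6.04 to 6.41 with each library left out in turn. The gene lies on chromosome 10 at 28972288 to 28986303 of GRCm38, on the minus strand, in GENCODE M21. From it to 9330159F19Rik (29211606 to 29230779, plus strand) the annotation holds 4 protein-coding genes, both ends included. The 3 of them in the table all rose, where 24.6% of all genes did. The stretch was drawn around these 3 genes, so their shared direction says nothing about the region. Soga3 (29143839 to 29199630, plus strand) had 3.12 and 1.54 CPM at day 3 and 26.7 and 33 CPM at day 4 (3.65 ± 0.35, adjusted p = 0.0017). 9330159F19Rik, chosen after its values were seen, had 0.149 and 0.685 CPM at day 3 and 9.96 and 18.3 CPM at day 4 (5.11 ± 0.61, adjusted p = 0.00294). The fourth gene, Gm49353, overlaps Soga3 and 9330159F19Rik on the same strand, so reads of these neighbours may be shared. In glands from E16 to E17 the log2 change was 4.69 ± 1.52 for 2310057J18Rik (adjusted p = 0.0966), -0.13 ± 0.23 for Soga3 and -0.04 ± 0.20 for 9330159F19Rik, and none of these passed.

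Another neighbourhood, on chromosome 5, split. Csn3, the kappa-casein gene, lies at 87925579 to 87932665 of GRCm38, Smr2 at 88086556 to 88109053 and Prol1 at 88317312 to 88328814, all on the plus strand. Of 10 protein-coding genes from Csn3 to Prol1, a stretch drawn around these 3 genes, only the 3 were in the table. While Smr2 and Prol1 rose, Csn3, chosen after its values were seen, had 19 and 11.6 CPM at day 3 and 2.25 and 3.01 CPM at day 4 and fell, with a log2 change of -2.54 ± 0.33 (adjusted p = 0.00357).

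Regulators of the secretory programme moved by less, and more of them fell than rose. Of 15 measured transcription factor genes 3 rose and 9 fell, with a median of -0.23. Bhlha15 (MIST1), which builds the secretory apparatus of acinar cells, rose from 443 and 562 CPM at day 3 to 742 and 716 CPM at day 4 (0.54 ± 0.11, adjusted p = 0.0104). Xbp1, which drives ER expansion, had 649 and 609 CPM at day 3 and 667 and 662 CPM at day 4 and did not pass (0.08 ± 0.06, adjusted p = 0.273). Among those that fell were the epithelial ETS factors Elf5 (-0.51 ± 0.08), Ehf (-0.36 ± 0.05) and Elf3 (-0.65 ± 0.15), and the forkhead factor Foxa1 (-0.25 ± 0.05). Ascl3, a marker of ionocyte-like duct cells, had 2.08 and 1.37 CPM at day 3 and 4.37 and 4.2 CPM at day 4 (1.30 ± 0.37, adjusted p = 0.0287). Its change was 1.04 (adjusted p = 0.0927) without day 3 replicate 2, 1.25 (adjusted p = 0.0806) without day 4 replicate 1 and 1.32 (adjusted p = 0.0834) without day 4 replicate 2. Elf3 had -0.51 (adjusted p = 0.058) without day 4 replicate 1, and without that library 1 transcription factor gene rose.

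Genes of fluid secretion split between rising and falling members. Of 17 measured genes 6 rose, 3 fell and 8 did not pass (52.9% called, against 46.6% of all genes). Aqp5, the water channel of acinar cells, had 713 and 762 CPM at day 3 and 909.7 and 891 CPM at day 4 and rose by 0.29 ± 0.06 (adjusted p = 0.0122), or 0.23 (adjusted p = 0.0683) without day 3 replicate 1. The basolateral salt cotransporter gene Slc12a2 (NKCC1) rose from 1873 and 2409.8 CPM at day 3 to 3289.8 and 3022 CPM at day 4 (0.56 ± 0.12), or 0.48 (adjusted p = 0.0529) without day 4 replicate 1. Rises that kept their call with each library left out were those of the calcium-activated potassium channel gene Kcnn4, from 403 and 551 CPM at day 3 to 797 and 762 CPM at day 4 (0.71 ± 0.13), and of the muscarinic receptor gene Chrm3, which triggers secretion, from 50.8 and 64.8 CPM at day 3 to 88 and 86.7 CPM at day 4 (0.60 ± 0.12). Ano1 (TMEM16A), the calcium-activated chloride channel of the acinar apical membrane, went the other way. It had 278 and 121 CPM at day 3 and 46.2 and 62.2 CPM at day 4, a change of -1.88 ± 0.36 (adjusted p = 0.0105). The days did not overlap, but the call of Ano1 was lost without day 4 replicate 1, at -1.70 (adjusted p = 0.091), and without day 4 replicate 2, at -2.12 (adjusted p = 0.0766). Without day 4 replicate 1 none of the 17 genes fell by the test, and without day 4 replicate 2 only 1 did. Aqp3, a water and glycerol channel of basal and squamous cells, rose from 5.73 and 5.31 CPM at day 3 to 26.5 and 13.7 CPM at day 4 (1.86 ± 0.34, adjusted p = 0.00798). Its gain was smaller without day 4 replicate 1, at 1.29 (adjusted p = 0.0229).

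The machinery behind secretion changed little. Of 37 measured ER and Golgi genes 9 rose, 5 fell and 23 did not pass (37.8% called, against 46.6% of all genes). Their median was 0.13. Of 13 genes of ER entry and signal cleavage 6 rose and none fell (46.2% called), a share near that of all genes. Among the 6 were the signal peptidase genes Spcs2 (0.26 ± 0.06) and Spcs3 (0.54 ± 0.12). Vesicle coat and cargo genes had 1 rise and 4 falls among 13, with the COPII coat gene Sec24d at -0.41 ± 0.09. Only 1 of the 37 genes rose without day 3 replicate 1 or without day 4 replicate 2, and 2 rose without TMM. Spcs3 had 0.42 (adjusted p = 0.0631) without day 3 replicate 1 and 0.42 (adjusted p = 0.0756) without day 4 replicate 2, and Spcs2 had 0.24 (adjusted p = 0.0543) and 0.23 (adjusted p = 0.0584). Sec24d had -0.31 (adjusted p = 0.053) without day 4 replicate 2. Of 7 granule release genes 3 rose and 2 fell (71.4% called, against 46.6% of all genes). Rab3d (0.32 ± 0.07), Rab27b (0.24 ± 0.07) and Sytl1 (0.28 ± 0.06) rose. Sytl2, another binding partner of RAB27, fell from 6.77 and 4.8 CPM at day 3 to 2.18 and 1.61 CPM at day 4 (-1.61 ± 0.32, adjusted p = 0.0107). Rab27a fell by less (-0.35), a call lost in the fit of days 3 and 4 alone. Without day 3 replicate 1 Rab3d had 0.23 (adjusted p = 0.0752) and Sytl1 0.26 (adjusted p = 0.0511), and the call of Rab27b was lost with any 1 of the 6 libraries left out.

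Genes of glycosylation and mucin processing, with sialic acid enzymes among them, split between rising and falling members. Of 18 measured genes 4 rose and 6 fell (55.6% called, against 46.6% of all genes). Fewer of them fell by the test without day 4 replicate 2. The sialyltransferase gene St3gal1 rose from 186 and 242 CPM at day 3 to 400.1 and 355 CPM at day 4 (0.82 ± 0.12, adjusted p = 0.00546), while St6gal1, which adds sialic acid in another linkage, fell from 188 and 158 CPM at day 3 to 85.5 and 76.4 CPM at day 4 (-1.10 ± 0.11, adjusted p = 0.00194). Gne, the enzyme that begins sialic acid synthesis, rose from 1479 and 1459.7 CPM at day 3 to 2125 and 2049 CPM at day 4 (0.51 ± 0.05). Galnt12, which starts O-glycan chains, fell by 0.69 on the log2 scale (SE 0.12). These 4 genes kept their calls in each alternative run. Galnt6 had the largest change of the list, at -1.58, and lost its call in 6 of the 13 runs.

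Genes of the end bud progenitors fell on balance. Of 14 measured genes 7 fell, 1 rose and 6 did not pass, with a median of -0.33. Sox10, the transcription factor of progenitors that give rise to acini, lies on chromosome 15 at 79154908 to 79165240 (minus strand). It had 386 and 356 CPM at day 2, 87.6 and 139.7 CPM at day 3 and 35.3 and 33.7 CPM at day 4. From day 3 to day 4 its log2 change was -1.72 ± 0.20 (adjusted p = 0.00275), after a fall of similar size the day before (-1.71 ± 0.19). Kit, the receptor of stem cell factor, had 275 and 332 CPM at day 3 and 173 and 181 CPM at day 4 and fell by 0.78 (SE 0.09, adjusted p = 0.00297). Sox10 is also a marker of Schwann cells, and of the 4 Schwann cell markers in the table it was the only one to pass. Mbp, a myelin protein gene, had 113 and 113 CPM at day 3 and 114 and 108 CPM at day 4 (-0.02 ± 0.07, adjusted p = 0.824), Pmp22 was at 0.58 ± 0.28 (adjusted p = 0.12), and the remaining one is Erbb3. The summed level of the 4 was 957 and 988 CPM at day 3 and 849 and 773 CPM at day 4, and their part in the fall of Sox10 was not tested. The RNA-binding protein genes Igf2bp1 (-0.50 ± 0.08) and Igf2bp2 (-0.47 ± 0.06), which are typical of embryonic tissue, fell by less than Sox10. Sox2, another progenitor factor, rose from 3.49 and 4.11 CPM at day 3 to 10.9 and 8.19 CPM at day 4 (1.33 ± 0.31, adjusted p = 0.0154). The call of Sox2 was lost without day 3 replicate 1, at 1.20 (adjusted p = 0.06), and without day 4 replicate 1, at 1.09 (adjusted p = 0.0612). The number of falling genes was 4 without either day 2 library, without day 3 replicate 2 or without day 4 replicate 2.

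None of the 5 measured ERBB receptor and receptor regulator genes passed the test. Erbb3 had 748 and 726 CPM at day 3 and 688 and 614 CPM at day 4 (-0.18 ± 0.07, adjusted p = 0.0641). Its partner Erbb2 had 804 and 796 CPM at day 3 and 808 and 759 CPM at day 4 (-0.03 ± 0.06, adjusted p = 0.656), and Egfr, the receptor of EGF, 208 and 158 CPM at day 3 and 155 and 170.4 CPM at day 4 (-0.17 ± 0.12, adjusted p = 0.266), and both overlapped between the days. Lrig1, which lowers receptor levels, and its relative Lrig3 were at 0.06 ± 0.07 and 0.08 ± 0.08. Of 6 ligand and ligand-release genes Egf, the epidermal growth factor that saliva also contains, rose from 43.4 and 50.3 CPM at day 3 to 91 and 81.5 CPM at day 4 (0.88 ± 0.10, adjusted p = 0.00271). Btc (betacellulin) rose by 0.62 ± 0.19, a call lost without day 3 replicate 1, at 0.50 (adjusted p = 0.12), without day 4 replicate 1, at 0.64 (adjusted p = 0.0796), and without day 4 replicate 2, at 0.57 (adjusted p = 0.119). Adam10, a protease that frees ligands from the membrane, fell by 0.31 (SE 0.08), or -0.22 (adjusted p = 0.0771) without day 3 replicate 1 and -0.28 (adjusted p = 0.0614) without day 4 replicate 1. Areg, Hbegf and Tgfa overlapped between the days and did not pass.

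Among readouts of MAP kinase signalling more genes fell than rose. Of 11 feedback genes of the ERK pathway 4 rose and 6 fell, and of 10 immediate early genes 5 fell and none rose. The phosphatase gene Dusp6, a direct ERK target, rose from 524 and 695 CPM at day 3 to 987 and 886 CPM at day 4 (0.62 ± 0.13, adjusted p = 0.0111), or 0.52 (adjusted p = 0.0526) without day 4 replicate 1, with the inhibitors Spry2 (0.41 ± 0.08) and Spred1 (0.45 ± 0.08). Dusp1, a phosphatase induced by stress and growth factors, fell from 25.7 and 28.9 CPM at day 3 to 16 and 17.2 CPM at day 4 (-0.71 ± 0.13, adjusted p = 0.00906). Among immediate early genes Egr1 fell by 0.39 (SE 0.08), Fos by 0.72 (SE 0.19) and Atf3 by 1.05 (SE 0.25). Fos was -0.54 (adjusted p = 0.0914) without day 3 replicate 1 and -0.48 (adjusted p = 0.0638) without day 4 replicate 1, and its call was also lost without either day 2 library. Atf3 was -0.97 (adjusted p = 0.0501) without day 3 replicate 1. Over both kinds 5 genes fell without day 3 replicate 1, and 2 rose without day 4 replicate 1.

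Keratins and junction genes of stratified epithelium rose. Of 30 squamous and cornified genes 16 were in the table, and 11 rose, 2 fell and 3 did not pass, with a median of 1.55. Krt13, a keratin of the inner lining of the mouth, lies on chromosome 11 at 100117327 to 100121566 (minus strand). It had 1.29 and 0.769 CPM at day 2, 1.34 and 2.14 CPM at day 3 and 79.2 and 23.6 CPM at day 4. Its log2 change was 4.89 ± 0.64 (adjusted p = 0.00373), and it was 3.75 (adjusted p = 0.00473) without day 4 replicate 1 and 5.51 (adjusted p = 0.000864) without day 4 replicate 2. The stress keratins Krt6b and Krt16 rose from 1.78 and 0.6 CPM at day 3 to 28.2 and 11.7 CPM at day 4 and from 1.93 and 0.771 CPM at day 3 to 16.3 and 10.1 CPM at day 4 (4.02 ± 0.59 and 3.25 ± 0.48). Krtdap, a protein of differentiating keratinocytes, rose from 2.68 and 1.71 CPM at day 3 to 14 and 10.6 CPM at day 4 (2.47 ± 0.36). The desmosomal cadherin gene Dsc3 had 14.7 and 18.4 CPM at day 3 and 51.6 and 40.1 CPM at day 4 (1.47 ± 0.18, adjusted p = 0.00297). Its partner Dsg3 had 11.3 and 2.74 CPM at day 3 and 30.7 and 32.9 CPM at day 4 (2.16 ± 0.51, adjusted p = 0.0167), and was 2.19 (adjusted p = 0.0546) without day 4 replicate 1 and 2.10 (adjusted p = 0.07) without day 4 replicate 2. Dsg1a, chosen after its values were seen, had 0 counts at day 3 and 226 at day 4, at least 65.4-fold higher. Krt4, the usual partner of Krt13, went the other way, from 106 and 65.4 CPM at day 3 to 23.9 and 30.9 CPM at day 4 (-1.65 ± 0.23, adjusted p = 0.00438). The other fall, of Ppl (-0.23 ± 0.08, adjusted p = 0.0448), was lost without any 1 library except day 3 replicate 2. The summed level of the list was 1389 and 936 CPM at day 3 and 1340 and 1349 at day 4. Krt6a made up a large part of that sum and overlapped between the days, with 457 and 149 CPM at day 3 and 277 and 387 CPM at day 4.

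Basal cell genes rose in part. Krt5, the keratin of basal duct and myoepithelial cells, had 232 and 282 CPM at day 3 and 897 and 749 CPM at day 4 and rose by 1.68 ± 0.17 (adjusted p = 0.00207). Its partner Krt14 had 995 and 592 CPM at day 3 and 1006 and 1336 CPM at day 4, so the libraries did not overlap by a small margin, and it did not pass (0.56 ± 0.23, adjusted p = 0.0777). Of 11 measured basal duct genes 5 rose and 3 fell. The galectin gene Lgals7, typical of stratified epithelium, rose from 35.9 and 40.0 CPM at day 3 to 75.3 and 72.6 CPM at day 4 (0.96 ± 0.16). Cdh3, the P-cadherin gene, fell by 0.48 (SE 0.08). The neurotrophin receptor gene Ngfr had 31.7 and 12.1 CPM at day 3 and 5.66 and 6.37 CPM at day 4 (-1.87 ± 0.44, adjusted p = 0.016), and was -1.80 (adjusted p = 0.0733) without day 4 replicate 1 and -1.96 (adjusted p = 0.0736) without day 4 replicate 2. Only 1 basal gene fell without day 4 replicate 2.

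Luminal duct and myoepithelial genes had no member that rose. Of 16 luminal genes 5 fell and 11 did not pass (31.2% called, under the 46.6% of all genes). Prom1, an apical membrane glycoprotein gene, fell from 512 and 481 CPM at day 3 to 253 and 324 CPM at day 4 (-0.78 ± 0.11, adjusted p = 0.00438), Wfdc2, a secreted protease inhibitor gene, from 1615 and 1307 CPM at day 3 to 839 and 948 CPM at day 4 (-0.71 ± 0.11), and the duct transcription factor gene Tfcp2l1 from 4350.2 and 4093 CPM at day 3 to 3330.0 and 3197 CPM at day 4 (-0.37 ± 0.07). Krt19 had 628 and 460.1 CPM at day 3 and 399.6 and 439 CPM at day 4 and did not pass (-0.38 ± 0.13, adjusted p = 0.0534). Without day 4 replicate 1 the list had 3 falls and 1 rise, and without day 3 replicate 2, without TMM or in DESeq2 it had 8 falls. Of 9 myoepithelial genes 7 fell, with a median of -0.64. The tropomyosin gene Tpm1 fell from 1679 and 1710.3 CPM at day 3 to 1067 and 1229 CPM at day 4 (-0.56 ± 0.08, adjusted p = 0.00407), the actin-binding protein gene Tagln by 1.06 (SE 0.19) and the contractile actin gene Actg2 from 27.1 and 26.5 CPM at day 3 to 2.59 and 9.31 CPM at day 4 (-2.17 ± 0.47, adjusted p = 0.0129). Actg2 was -1.54 (adjusted p = 0.00831) without day 4 replicate 1, and 4 of the list fell without day 3 replicate 1.

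Basement membrane genes fell as well. Of 15 measured genes 11 fell, none rose and 4 did not pass, with a median of -0.44. The type IV collagen genes Col4a1 and Col4a2 fell from 408 and 346 CPM at day 3 to 193 and 210.5 CPM at day 4 and from 265 and 253 CPM at day 3 to 138 and 141 CPM at day 4 (-0.90 ± 0.10 and -0.89 ± 0.06, adjusted p = 0.00235 and 0.000559). Perlecan (Hspg2) fell by 0.81 (SE 0.11), nidogen (Nid1) by 0.61 (SE 0.11) and agrin (Agrn) by 0.44 (SE 0.07). Laminin genes moved by less, with Lama5 at -0.38 ± 0.07 and Lamb3, which belongs to the laminin of hemidesmosomes, not passing (-0.05 ± 0.06, adjusted p = 0.481). Outside the list Lama4, a laminin chain of vessels and nerves, rose from 31.2 and 57.8 CPM at day 3 to 202 and 175 CPM at day 4 (2.09 ± 0.25, adjusted p = 0.00294). The number of falling genes stayed within 1.5 times of 11 in each alternative run.

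**Figure D3:**
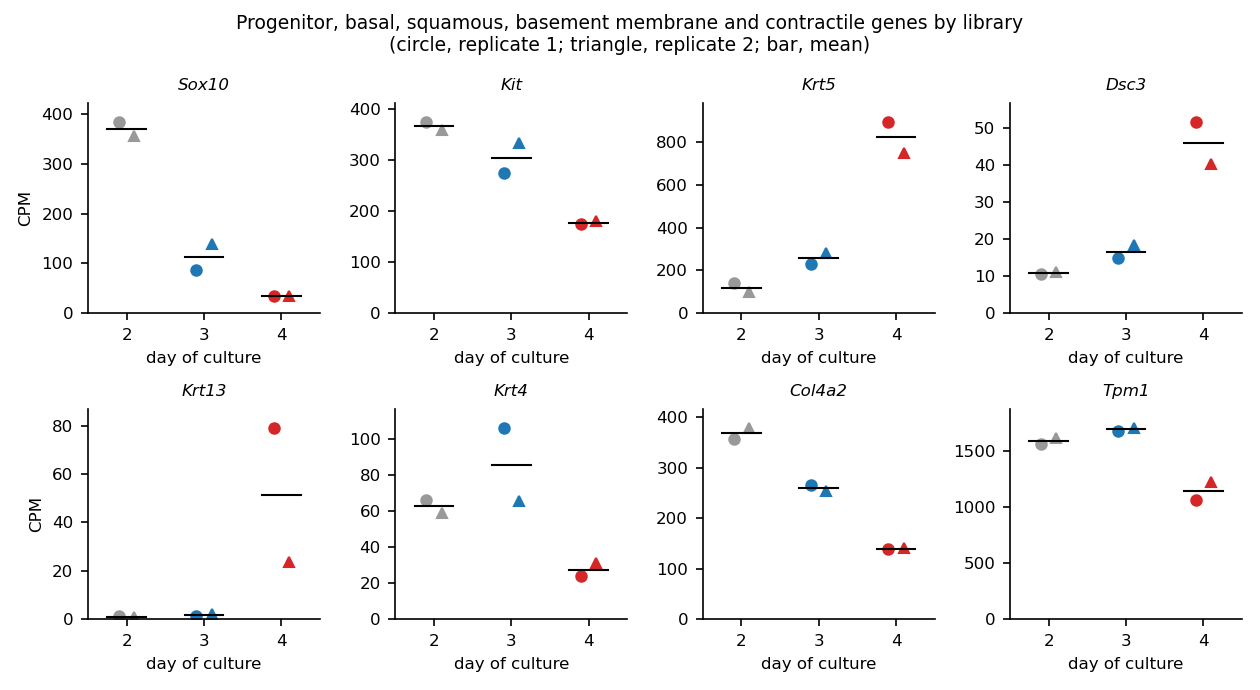
Levels in CPM (y axis, starting at 0) of 8 genes of progenitor, basal, squamous, basement membrane and contractile lists in each library by day of culture (x axis). Sox10 goes from 386 and 356 CPM at day 2 to 35.3 and 33.7 at day 4, and the 2 day 4 libraries of Krt13 lie at 79.2 and 23.6 CPM.

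The largest falls came from genes of several kinds. Tgm2, a transglutaminase that crosslinks matrix proteins, lies on chromosome 2 at 158116402 to 158146436 (minus strand). It had 158 and 81 CPM at day 3 and 4.71 and 9.24 CPM at day 4, a log2 change of -4.10 ± 0.39 (adjusted p = 0.00158). Ptprn2, a membrane protein of dense-core vesicles, fell from 87.6 and 86.9 CPM at day 3 to 11.1 and 15.6 CPM at day 4 (-2.71 ± 0.19). Fam150b, which encodes a ligand of the receptor ALK, fell from 98.5 and 80.3 CPM at day 3 to 16.8 and 17.2 CPM at day 4 (-2.40 ± 0.12, adjusted p = 0.000214). Ern2 (IRE1 beta), the ER stress sensor of mucus-making cells, fell from 16.1 and 27.2 CPM at day 3 to 4.23 and 2.73 CPM at day 4 (-2.63 ± 0.32), and the cartilage collagen gene Col2a1 from 15.8 and 27.3 CPM at day 3 to 4.3 and 3.64 CPM at day 4 (-2.43 ± 0.35). Col2a1 had 109 and 69.8 CPM at day 2. Each of these 5 genes kept its call in all alternatives run.

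For 6 others among the 12 largest falls the call was lost when 1 or another single library was left out. Leaving out a library also left fewer residual degrees of freedom than the 3 of the main fit. Without day 3 replicate 1, Akap12, which scaffolds protein kinase A, was -1.65 (adjusted p = 0.0635), the NF-kappa B cofactor gene Bcl3 -1.23 (adjusted p = 0.0628), the retinoic acid receptor gene Rarb -1.27 (adjusted p = 0.0529) and Wfdc12 -1.62 (adjusted p = 0.0771). Without day 4 replicate 1, Crispld2 was -1.99 (adjusted p = 0.0536), Lbp, which binds bacterial lipopolysaccharide, -1.98 (adjusted p = 0.0697), Akap12 -2.10 (adjusted p = 0.067), Bcl3 -1.57 (adjusted p = 0.0692) and Rarb -1.55 (adjusted p = 0.0656). Lbp was -2.33 (adjusted p = 0.0649) without day 4 replicate 2. Wfdc12 also lost its call without either day 2 library. The day 3 libraries of Akap12 held 69.5 and 22.4 CPM and those of Bcl3 88.8 and 35.7.

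Genes of amino acid supply and protein synthesis rose together. The transcription factor ATF4 is made when amino acids are short or the ER is stressed, and it switches on transporters, amino acid synthesis and tRNA synthetases. Of 28 measured ATF4 and amino acid genes 22 rose and none fell, with a median of 0.37. Chac1, which breaks down glutathione, had 10.8 and 10.2 CPM at day 3 and 26.7 and 28.9 CPM at day 4 (1.41 ± 0.18, adjusted p = 0.00346). Asparagine synthetase (Asns) had 95.6 and 124 CPM at day 3 and 272 and 266 CPM at day 4 (1.30 ± 0.13, adjusted p = 0.00207). The amino acid transporter gene Slc7a5 rose from 144 and 181 CPM at day 3 to 310.1 and 292 CPM at day 4 (0.89 ± 0.11) and the mitochondrial folate enzyme gene Mthfd2 from 39.3 and 54.5 CPM at day 3 to 90.3 and 80.5 CPM at day 4 (0.87 ± 0.16). The day 2 libraries held 15.6 and 20.5 CPM for Chac1, 104 and 127 for Asns, 244 and 277 for Slc7a5 and 79.5 and 90.6 for Mthfd2. Of 10 tRNA synthetase genes 8 rose, by 0.27 to 0.40 on the log2 scale. From day 2 to day 3, 16 of the 28 genes had fallen and 1 had risen, where 49.3% of all genes were called, 24.0% higher and 25.3% lower. The median without TMM was 0.28, and 1 gene was then called lower.

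Promoters of the strongest ATF4 and amino acid genes are shown because ATF4 is known to bind a composite element there. The letters searched were TGATGNAA and its reverse complement TTNCATCA, in 300 bases from 250 before to 50 after the transcript start, from RefSeq on build GRCm38.p6. Promoter entries were found for 20 of the 28 genes, under 80%, so no share over the list is given. Over all 27025 genes with an entry 4.51% held a match. Asns and Chac1 were not the only genes of this list with a match. These genes, shown here, held 1 match each, which stands in capitals.
Asns, chr6:7693160-7693459, minus strand: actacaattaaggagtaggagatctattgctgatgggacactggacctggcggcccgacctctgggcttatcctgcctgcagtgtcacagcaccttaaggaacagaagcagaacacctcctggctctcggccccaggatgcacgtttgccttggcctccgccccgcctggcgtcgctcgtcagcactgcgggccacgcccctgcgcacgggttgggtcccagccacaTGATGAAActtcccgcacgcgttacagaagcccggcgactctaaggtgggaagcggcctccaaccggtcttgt
Chac1, chr2:119350992-119351291, plus strand: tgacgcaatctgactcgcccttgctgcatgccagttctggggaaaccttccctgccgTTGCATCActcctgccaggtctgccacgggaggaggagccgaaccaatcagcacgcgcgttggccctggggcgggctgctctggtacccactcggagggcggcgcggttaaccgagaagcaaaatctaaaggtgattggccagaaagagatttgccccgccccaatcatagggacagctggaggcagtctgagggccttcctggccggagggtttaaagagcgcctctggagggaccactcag
A match of letters is a description and not a site of binding.

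Ribosomal protein genes rose by a small and even amount. Of 26 measured genes 25 rose and 1 did not pass, between 0.12 and 0.50 on the log2 scale, with a median of 0.29. Rps24 went from 769.8 and 775 CPM at day 3 to 1034 and 1152 CPM at day 4 (0.50 ± 0.07, adjusted p = 0.00374) and Rpl32 from 1035 and 1107 CPM at day 3 to 1401 and 1583 CPM at day 4 (0.48 ± 0.07). Without day 3 replicate 1, 14 rose. Respiratory chain genes moved likewise, with 14 of 18 higher, none lower and a median of 0.25, and with 7 higher without day 4 replicate 2 and 9 without day 3 replicate 1. Cox6c, a subunit of cytochrome c oxidase, had 178 and 182 CPM at day 3 and 227 and 241 CPM at day 4 (0.38 ± 0.06). Medians without TMM were 0.20 for ribosomal protein and 0.16 for respiratory chain genes.

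Sterol synthesis genes rose in part. Of 28 measured genes of sterol and fatty acid synthesis 14 rose, 1 fell and 13 did not pass (53.6% called, against 46.6% of all genes). By role, 11 of 17 sterol genes and 3 of 11 fatty acid genes rose, a difference that was not tested. Insig1, the sterol sensor that is itself a target of SREBP, rose from 631 and 762 CPM at day 3 to 1272 and 1206 CPM at day 4 (0.83 ± 0.09, adjusted p = 0.00234), and Hmgcs1, an early enzyme of cholesterol synthesis, from 570.3 and 697 CPM at day 3 to 859 and 865 CPM at day 4 (0.44 ± 0.09). The number of rises was 4 without day 3 replicate 1, 4 without day 4 replicate 2, 9 without either day 2 library and 8 without TMM.

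Genes of glycolysis and the response to low oxygen were higher at day 4, but mostly in 1 library. Of 13 measured genes 12 rose, with a median of 0.63. Ldha, which makes lactate, had 477 and 462 CPM at day 3 and 544 and 905 CPM at day 4 (0.62 ± 0.20, adjusted p = 0.0388). Bnip3, a mitophagy receptor induced by hypoxia, had 23.9 and 25.6 CPM at day 3 and 35 and 87.8 CPM at day 4 (1.31 ± 0.38), and Ankrd37 1.19 and 0.857 CPM at day 3 and 2.93 and 13.7 CPM at day 4 (3.00 ± 0.74). Day 4 replicate 2 was the higher library for each of the 3, and day 4 replicate 1 lay much nearer to day 3. Without day 4 replicate 2 only 3 of the 13 rose, with Bnip3 at 0.50 (adjusted p = 0.082), Ankrd37 at 1.495 (adjusted p = 0.062) and Ldha at 0.21 (adjusted p = 0.0557). Ldha also lost its call without either library of day 2 or of day 3. Without day 3 replicate 1 none passed, without day 3 replicate 2 only 3, without either day 2 library 5, and in the fit of days 3 and 4 alone 2.

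The core of the hypoxia response element, ACGTG or its reverse complement CACGT, was present in promoters of 9 of the 12 genes with an entry (75%), against 21.8% of 27025 genes. Many members were listed because they are known targets of HIF1, which binds this core, so a high share is built into the list. The promoters of Ldha, with 5 matches in capitals, and of Bnip3, with 2, are shown because these genes differed between the day 4 libraries. Both strands are counted, and matches overlap where CACGTG reads the same on both.
Ldha, chr7:46845554-46845853, plus strand: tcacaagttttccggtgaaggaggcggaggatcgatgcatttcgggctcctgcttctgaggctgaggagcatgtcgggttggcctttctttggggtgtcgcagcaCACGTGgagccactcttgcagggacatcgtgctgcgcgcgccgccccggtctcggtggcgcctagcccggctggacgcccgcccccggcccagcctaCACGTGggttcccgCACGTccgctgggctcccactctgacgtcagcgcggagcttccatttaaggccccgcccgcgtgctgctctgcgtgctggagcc
Bnip3, chr7:138909457-138909756, minus strand: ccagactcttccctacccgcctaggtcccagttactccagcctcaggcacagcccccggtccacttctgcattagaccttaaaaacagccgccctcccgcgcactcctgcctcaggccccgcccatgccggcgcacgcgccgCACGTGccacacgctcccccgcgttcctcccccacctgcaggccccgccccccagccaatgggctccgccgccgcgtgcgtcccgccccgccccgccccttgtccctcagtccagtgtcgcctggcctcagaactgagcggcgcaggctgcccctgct

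**Figure D4:**
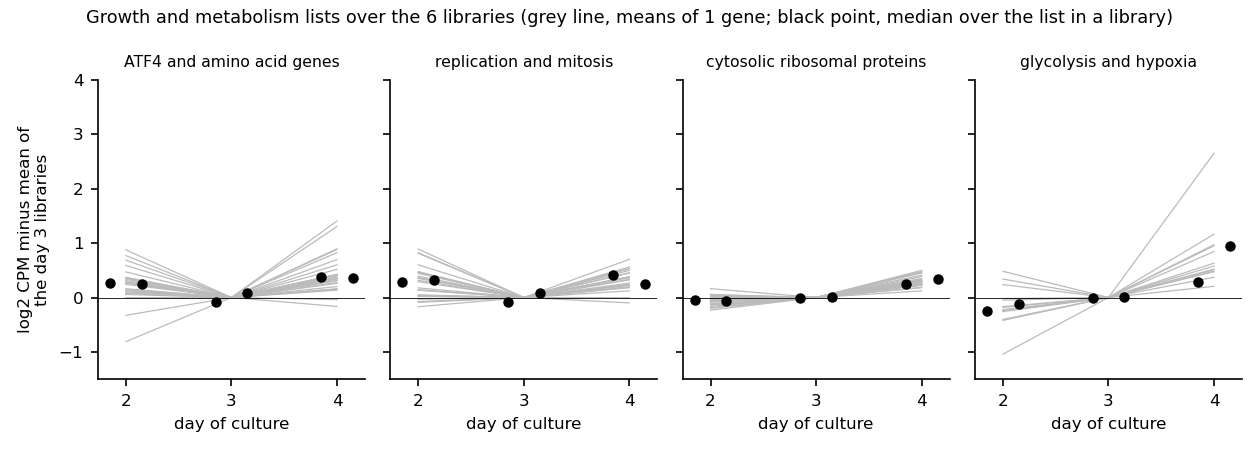
Log2 CPM relative to the mean of the day 3 libraries (y axis) by day of culture (x axis) for 4 gene lists, with a grey line through the day means of each gene and a black point for the list's median in each library. The ATF4 and replication lists dip at day 3, and the glycolysis list is raised mainly in day 4 replicate 2.

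Replication genes were higher at day 4. Of 24 measured replication and mitosis genes 15 rose and none fell, with a median of 0.35. By role, 12 of 14 replication genes and 3 of 10 mitosis genes passed, a difference that was not tested. Pcna, the sliding clamp of DNA polymerase, had 110.1 and 125 CPM at day 3 and 172 and 167 CPM at day 4 (0.53 ± 0.08, adjusted p = 0.00445) and Pola1, a polymerase subunit, 62.7 and 71.4 CPM at day 3 and 102 and 95.1 CPM at day 4 (0.56 ± 0.09). Bub1, a mitotic checkpoint kinase, rose from 45.1 and 50.1 CPM at day 3 to 71 and 66.4 CPM at day 4 (0.53 ± 0.09), while Plk1 did not pass (-0.09 ± 0.10, adjusted p = 0.442). From day 2 to day 3, 13 of the 24 had fallen and none had risen. Inhibitors of cyclin-dependent kinases changed as well. Cdkn2c rose from 25.4 and 29.6 CPM at day 3 to 61.5 and 45 CPM at day 4 (0.95 ± 0.17) and Cdkn2d from 34.3 and 33.7 CPM at day 3 to 48 and 47.5 CPM at day 4 (0.49 ± 0.09), and Cdkn1c fell by 0.58 (SE 0.13), or -0.45 (adjusted p = 0.0649) without day 4 replicate 2. The number of rising genes in the replication list was 5 without day 3 replicate 1, 7 without day 4 replicate 1, 8 without either day 2 library and 8 without TMM.

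Of 32 measured WNT, hedgehog, FGF, BMP and related genes 5 rose and 11 fell (50% called), a share near the 46.6% of all genes. Ltbp1, which holds latent TGF beta in the matrix, fell from 859.8 and 567 CPM at day 3 to 243 and 309 CPM at day 4 (-1.37 ± 0.19, adjusted p = 0.00439), the ectodysplasin receptor gene Edar from 20.4 and 16.4 CPM at day 3 to 5.94 and 8.61 CPM at day 4 (-1.34 ± 0.24) and the secreted protein gene Dkk3 by 0.63 (SE 0.12). Fst, the activin inhibitor follistatin, rose from 147 and 175 CPM at day 3 to 228 and 256 CPM at day 4 (0.59 ± 0.10). Fgf7, a growth factor that is usually made by stroma, had 4.98 and 24.7 CPM at day 3 and 55.7 and 39.1 CPM at day 4 (1.69 ± 0.59, adjusted p = 0.0484), and its call was lost without either day 2 library, without day 4 replicate 1, at 1.40 (adjusted p = 0.184), and without day 4 replicate 2, at 1.92 (adjusted p = 0.114). Among 8 NOTCH pathway genes the ligand gene Jag1 rose from 116 and 97.7 CPM at day 3 to 182 and 175 CPM at day 4 (0.74 ± 0.09) and the target gene Hey1 fell from 12.2 and 11.3 CPM at day 3 to 4.16 and 3.99 CPM at day 4 (-1.53 ± 0.18, adjusted p = 0.00297).

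Of 27 measured defence genes 7 rose and 5 fell (44.4% called), a share near the 46.6% of all genes. The interferon-inducible gene Ifi27 rose from 25.7 and 23 CPM at day 3 to 79.8 and 82.2 CPM at day 4 (1.73 ± 0.10, adjusted p = 0.000437), and the antigen presentation gene H2-K1 by less (0.54 ± 0.10). The neutrophil-attracting chemokine gene Cxcl1 fell from 47.1 and 38.5 CPM at day 3 to 21.3 and 22.3 CPM at day 4 (-0.97 ± 0.15, adjusted p = 0.00555), after 9.65 and 8.46 CPM at day 2. With single libraries left out 3 to 7 rose and 1 to 6 fell.

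Markers of macrophages also rose. Of 7 measured genes 5 rose, namely Adgre1, C1qa, C1qb, C1qc and Mrc1, and none fell. Their summed level with Lyz2 and Tyrobp was 36.6 and 22.0 CPM at day 3 and 50.7 and 140.5 at day 4, against 16 and 26.6 at day 2. The mannose receptor gene Mrc1 had 3.94 and 1.28 CPM at day 3 and 8.6 and 22.1 CPM at day 4 (2.53 ± 0.67), and C1qa, a complement gene, 2.6 and 1.28 CPM at day 3 and 5.66 and 10.3 CPM at day 4 (2.02 ± 0.46). Without day 4 replicate 2 none of the 7 passed, with Mrc1 at 1.69 (adjusted p = 0.129), and at 1.96 (adjusted p = 0.0944) without day 3 replicate 2, and C1qa at 1.52 (adjusted p = 0.068). Gpnmb, a glycoprotein of macrophages and other cells that was among the 12 largest rises, had 6.25 and 2.74 CPM at day 3 and 14.3 and 51.7 CPM at day 4 (2.86 ± 0.71), and was 1.65 (adjusted p = 0.105) without that library, 3.57 (adjusted p = 0.0564) without day 3 replicate 1 and 2.40 (adjusted p = 0.108) without day 3 replicate 2. Day 4 replicate 2 is also the library with the higher glycolysis genes. The part of these markers in the results was not tested. No mesenchymal marker rose. Pdgfra had 16.4 and 13.8 CPM at day 3 and 7.44 and 8.12 CPM at day 4 and Pdgfrb 20.6 and 11.2 CPM at day 3 and 5.46 and 7.35 CPM at day 4, and both passed as lower, calls that were lost without day 3 replicate 1, at -0.84 (adjusted p = 0.0798) and -0.82 (adjusted p = 0.2), without day 4 replicate 1, at -0.91 (adjusted p = 0.0755) and -1.14 (adjusted p = 0.174), and without day 4 replicate 2, at -1.02 (adjusted p = 0.0694) and -1.55 (adjusted p = 0.113).

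Whether the step from day 3 to day 4 differed from the step before was tested as the difference of both log2 changes, which share the day 3 libraries. Of 5171 genes 278 (5.38%) passed, 94 with a more positive (1.82%) and 184 with a more negative (3.56%) step to day 4. Among the 5 of the 184 with the smallest adjusted p were A2ml1 and Ccl20. A2ml1, a protease inhibitor of the alpha-2-macroglobulin family, had 1096 and 1084 CPM at day 2, 7598 and 6081 CPM at day 3 and 6614 and 6717 CPM at day 4, a difference of -2.69 ± 0.17 (adjusted p = 0.0022). The chemokine gene Ccl20 had 2.07 and 2.39 CPM at day 2, 50.7 and 47.8 CPM at day 3 and 57.5 and 43 CPM at day 4 (-4.43 ± 0.29, adjusted p = 0.0022). Among the 5 of the 94 with the smallest adjusted p was Atf5, a factor related to ATF4, with 237 and 245 CPM at day 2, 180.0 and 202 CPM at day 3 and 299 and 319 CPM at day 4 (1.03 ± 0.13, adjusted p = 0.0214). Of 28 ATF4 and amino acid genes 16 passed in this direction. With the replicate number as a block, no gene of the table passed with a more positive step. The genes counted below without day 3 replicate 1 all had a more negative step to day 4. Smgc rose less in the later step (-0.92 ± 0.17, adjusted p = 0.0363). These counts depend on single libraries, with 0 genes passing without either day 2 library, 16 without day 3 replicate 1, 918 without day 3 replicate 2 and 36 without day 4 replicate 1, and 2 genes passed with the replicate number as a block.

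In glands the step from E16 to E17 was tested in a table of its own, in a fit over all stages from E13 to E18. There 908 of 16521 genes (5.50%) were called, and 477 of the 4984 genes that the culture table shares (9.57%), 331 higher (6.64%) and 146 lower (2.93%) at E17. Of the 1236 genes that rose in culture and were tested in glands 153 also rose there and 15 fell, and of the 1107 that fell in culture 62 also fell and 33 rose. Over 4984 genes Pearson's r of the log2 changes was 0.277 and Spearman's rho 0.379, a description across genes, which are not independent replicates. Of 14 acinar products 8 rose and none fell in glands, and the gland changes were 2.09 ± 0.41 for Bpifa2 (adjusted p = 0.00275), 2.47 ± 0.26 for Pip (adjusted p = 2.04e-06) and 1.34 ± 0.56 for Smgc (adjusted p = 0.199, not passing). Car6, which did not pass in culture, rose in glands by 4.14 ± 0.15. None of the 12 squamous genes tested in glands passed, with Dsc3 at 0.13 ± 0.34, Krt13 at -3.62 ± 1.66 and Krtdap at 0.37 ± 1.34. Sox10 (0.00 ± 0.12, adjusted p = 0.993) and Kit (-0.06 ± 0.10) did not pass in glands either. Hmga2, a chromatin gene of embryonic cells, fell in glands by 1.09 (SE 0.11), and in culture it did not pass (-0.33 ± 0.14, adjusted p = 0.0773). Whether the steps of culture and gland differ was not tested, since they come from separately normalized tables and different tissues.

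**Figure D5:**
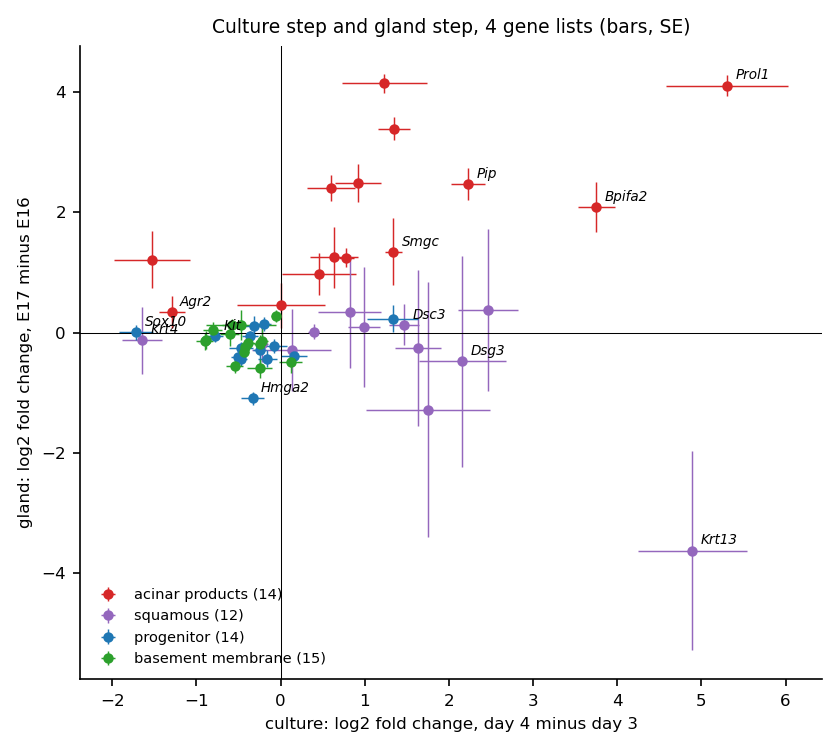
Log2 fold change from day 3 to day 4 in culture (x axis) and from E16 to E17 in glands (y axis) for members of 4 lists, with 1 point a gene and bars for the SE. Acinar products such as Pip lie to the upper right, and Sox10 lies at -1.72 in culture and near 0 in glands.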

How the data were processed

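RNA was sequenced from NRG1-treated E13 salivary gland epithelium and from untreated glands. Per the submitters' processing notes, fastp, STAR and featureCounts were used with build mm10. Not given in the sources used here were their versions, the annotation, the strand setting and how the 5179 rows of the culture table were picked. The deposited values are counts of reads per gene, not normalized by the authors. Gland counts were deposited in a table of their own, and nothing was tested across the tables.

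Table columns were mapped to samples by their names. The 8 rows with a date as symbol held 0.112% to 0.134% of the counts and were left out. The fit was edgeR 4.0.16 in R 4.3.3 (TMM, filterByExpr, robust quasi-likelihood, Benjamini-Hochberg adjustment, threshold 0.05) over 3 days with 2 libraries each, with 3 residual degrees of freedom and a biological coefficient of variation of 0.094. Glands were fitted over E13 to E18. Folds are log2 with SE, a change is day 4 minus day 3, and exact intervals and the floor of 3 counts cover counting error only. Library totals of the partial table limit the precision of low genes. Libraries of a day differed by more than sampling noise, with a chi-square per gene of 18 at day 3 and 17.1 at day 4. Data were simulated with 200 changed genes among 5171. Of changes between day 4 and day 3, 77.6% of 1.5-fold, 89.6% of 2-fold and 98.5% of 4-fold were recovered. The simulation changed far fewer genes than were called here and drew each value independently, so these rates need not hold for this comparison.

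The comparison, members and lists were chosen with earlier results of these data known. The rule for named genes took the 12 largest changes each way among called genes with at least 10 CPM and no overlap, up to 4 called members a list, all acinar products and ERBB genes, 9 markers (such as Aqp5 and Sox10) and 5 genes each way for the difference of steps. Other genes named were chosen after their values were seen, and a few genes that the rule names are not reported here. Alternatives were RLE size factors, no TMM, no filter, DESeq2 1.42.0, a replicate block, days 3 and 4 alone, and each library left out.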

Additional observations from a re-analysis of the deposited data

Results flagged for a closer look

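The step from day 3 to day 4 differed from the step before, which shares the day 3 libraries, in 278 genes by a test of the difference itself. Among the genes named for it, the difference in log2 change was 1.35 for Capn6, 0.79 for Aars, 1.03 for Atf5 and 1.57 for Slc7a5. It was -2.69 for A2ml1, -4.43 for Ccl20, -3.22 for Cxcl1, -2.11 for Susd2 and -1.06 for 5330417C22Rik. Each of these 9 lost its call when either day 2 library was left out, at the same direction.

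Among named genes, 10 of 104 sets of 4 gland samples had 1 sample far from the rest. Chance flags about 1 in 20 of independent sets, but these sets share samples, so the count cannot be read against that rate. Values in CPM were as follows. Sample A of E16 held 260 for Sox10 against 223 in the others. Sample B of E16 held 2.35 for Wfdc12 against 1.05 to 1.24. Sample C of E16 held 0.099 for 2310057J18Rik against 0, a level of very few reads. At E17, sample A held 1.72 for Soga3 against 1.06 to 1.13 and 3.39 for Sox2 against 4.3 to 4.37, and sample B held 497 for Prol1 against 695 to 706. Sample C of E17 held 6.29 for Crispld2 against 10.8 to 11.2, 46.4 for Agr2 against 29.8 to 32.1, 139 for Erbb2 against 156 to 159 and 3.64 for Btc against 4.53 to 4.66.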

How the results depend on the processing

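Calls from day 3 to day 4 ranged from 1155 to 1957 with single libraries left out (533 to 987 higher, 622 to 970 lower) and were 1517 (786 higher, 731 lower) in days 3 and 4 alone, 2065 in DESeq2 and 2216 with RLE size factors. Without TMM 765 were higher. The count of differing steps ranged from 0 to 918 with single libraries left out (0 to 326 more positive, 0 to 592 more negative), and was 713 in DESeq2 (295 and 418), with 313 more negative without TMM. For glands the count ranged from 523 to 743 (319 to 468 higher, 196 to 289 lower), and was 1804 (984 higher, 820 lower) in E16 and E17 alone. The replicate number as a block gave 1904 calls and 2 differing steps (0 and 2). Deviations of samples with the same number correlated at -0.0118, 0.155 and -0.523 (day 3 with day 4). These values cannot show whether equal numbers mark a shared culture or litter, which the labels do not say. The crossed pairing, added after seeing the data, gave 2548 calls and 870 differing steps (312 and 558). Of 141 named genes with a call, 95 kept it without day 3 replicate 1, 105 without either day 4 library, 114 without either day 2 library, 124 without day 3 replicate 2, 111 in days 3 and 4 alone, 121 with the block, 131 without TMM, 133 in DESeq2 and 136 with RLE size factors, and none reversed. Uncalled genes that changed sign were Dcpp2 (-0.0332 RLE, -0.0872 without TMM, -0.0438 DESeq2, -0.00657 in days 3 and 4 alone, -0.649 to 1.11 with single libraries left out), Lrig1 (-0.0283 without TMM, -0.0445 to 0.141), Lrig3 (-0.00604 without TMM), Mucl1 (-0.106 to 1.05), Egfr (-0.357 to 0.0298), Erbb2 (-0.0938 to 0.0078) and Areg (-0.505 to 0.959). The cause of these shifts was not tested.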

Other observations

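Single genes of smaller groups changed from day 3 to day 4. Among the 13 measured tight junction genes 2 rose and 3 fell (38.5% called), against 46.6% of all genes called. Cldn10, which forms a pore for ions in secretory epithelia, rose from 472 and 497 CPM at day 3 to 708 and 744 CPM at day 4 (0.58 ± 0.10, adjusted p = 0.00652), while Cldn4, which tightens the junction, fell from 975 and 739 CPM at day 3 to 542 and 648 CPM at day 4 (-0.53 ± 0.14), or -0.32 (adjusted p = 0.0617) without day 3 replicate 1 and -0.42 (adjusted p = 0.0889) without day 4 replicate 1, and without either day 2 library the call was also lost. Of 10 FOXO target genes 1 rose and 5 fell (60% called). The glucocorticoid-induced gene Tsc22d3 rose from 20.3 and 22.5 CPM at day 3 to 36 and 40.5 CPM at day 4 (0.84 ± 0.13). The ubiquitin ligase gene Fbxo32 fell from 304 and 342 CPM at day 3 to 238 and 199 CPM at day 4 (-0.56 ± 0.10). Of 18 measured genes of lysosomes and autophagy, 3 passed as higher and 2 as lower (27.8% called), under the share of all genes. The cathepsin gene Ctsh rose from 212 and 255 CPM at day 3 to 431 and 421 CPM at day 4 (0.87 ± 0.09). The choline transporter gene Slc5a7 was among the 12 largest rises, with 2.23 and 3.94 CPM at day 3 and 23.3 and 18.3 CPM at day 4 (2.76 ± 0.32), and so was Gm21718, with 3.27 and 3 CPM at day 3 and 23.3 and 23.3 CPM at day 4 (2.89 ± 0.35). Ret, the receptor of GDNF, was the only gene of the 17 listed neuronal markers in the table. It rose by 1.04 ± 0.21 (adjusted p = 0.0114), a call lost without day 4 replicate 2, at 0.92. Serpinb3a, a squamous protease inhibitor chosen after its values were seen, had 3 counts over both day 3 libraries and 367 over both day 4 libraries, a ratio per count of 106 (95% exact interval 36.1 to 517). Ano7, chosen in the same way, had 77 counts at day 3 and 2 at day 4, a ratio of 44.3 the other way (11.9 to 373).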
